A study of Mus musculus with 8 samples.

Results

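The glutathione S-transferases described here are 9 genes: Gsta1, Gsta3, Gsta4 and Gm3776 of the alpha class, Gstm1 and Gstm3 of the mu class, Gstp1 of the pi class, Gsto1 of the omega class, and the microsomal Mgst1. They are 9 of 16958 genes with a value in mouse intestinal crypts, and they were listed by name with their values in the 6 crypt libraries already known, so their levels and ratios are a description. All 9 averaged 1 FPKM or more over the 6 libraries (FPKM are fragments per kilobase of gene, scaled to the size of the library), as did 10862 genes in all, which are the genes compared below. Gsta3 was under 1 FPKM in WT crypts and passed this filter through the knockout libraries alone.

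RNA was taken from crypts of C57BL/6 mice aged 8 weeks in 5 knockout groups, named VEMD2, VEMD3, VEMD4, VEMD6 and VEMD8, and in 1 WT group, with 1 library in each. The knockout mice, setdb1 iIEC-KO, lose Setdb1, a histone H3 lysine methyltransferase, through a tamoxifen-activated Cre under the Villin promoter, which is active in the gut epithelium. The WT mice were setdb1fl/fl littermates, and both genotypes were given 1 dose of 800 mg/kg tamoxifen by gavage. The labels do not explain the name VEMD or its number, which serve only as names here, and 2 stem cell samples were not used. The header of the WT column names no tissue; it was taken as the crypt WT library because it stands in 1 table with the 5 VEMD libraries and the protocol lists WT with them, and every ratio to WT rests on that.

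With 1 library per group, the differences have no replicate check, no error and no test. The depth behind the values is unknown. A gene is called higher or lower where knockout and WT crypts were 2-fold or more apart with 1 FPKM added to both values, and log2 ratios and folds between libraries are on that scale, which understates the change of low genes. The 5 ratios of a gene share the WT library, so a low or high WT value moves them together.

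Setdb1 itself was at 6.64, 7.03, 5.49, 3.53 and 4.95 FPKM in VEMD2, VEMD3, VEMD4, VEMD6 and VEMD8 crypts, against 9.42 FPKM in WT crypts. These values cover the whole gene, and the deleted stretch was not measured apart. All 22 enterocyte, 15 Paneth, 11 goblet and 9 stem cell markers were above 0 in all 6 libraries, while Pyy of the 11 enteroendocrine markers and Dclk1 and Gfi1b of the tuft markers were at 0 in at least 1. Of 11 stroma markers, 8 (Col1a2, Col3a1, Dcn, Lum, Pdgfra, Cdh5, Acta2 and Myh11) were at 0 in at least 1 library, and the list summed to between 0.22 and 2.29 FPKM in knockout crypts and 0.45 FPKM in WT crypts. The 12 leukocyte markers summed to between 12.8 and 32.8 FPKM in knockout crypts, against 21.4 FPKM in WT crypts. Epithelial marker levels differed between libraries: 14 Paneth cell markers without Reg3g summed to 43536.2, 21940.4, 8613.2, 2554.2 and 3707.2 FPKM in VEMD2 to VEMD8 crypts and 30540.7 FPKM in WT crypts. Reg3g, an inducible lectin, is given apart, since it ran against the other markers in VEMD8, where it was at 6988.4 FPKM, against 1570.5 FPKM in WT crypts. With it the list summed to 10695.6 FPKM in VEMD8 crypts and 32111.2 FPKM in WT crypts. The log2 ratios of Reg3g were -0.98 in VEMD2 and 0.89 in VEMD4, where the list medians were 0.54 and -1.88. Pla2g2a, which was kept in the sum, was at 1.05 in VEMD4. The 11 goblet cell markers summed to 5522.8, 3743.5, 6223.9, 1180.4 and 1981.9 FPKM in VEMD2 to VEMD8 crypts and 5744.8 FPKM in WT crypts. The 11 enteroendocrine markers summed to 439.5, 685.9, 356.6, 105.7 and 36.6 FPKM in VEMD2 to VEMD8 crypts and 369.0 FPKM in WT crypts. The 22 enterocyte markers summed to 6528.4, 4909.8, 11134.2, 30603.6 and 14510.7 FPKM in VEMD2 to VEMD8 crypts and 15040.0 FPKM in WT crypts. In bulk crypts, fewer cells of a type and less RNA per cell cannot be told apart, for these markers and for the transferases alike.

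Glutathione S-transferases join the tripeptide glutathione to electrophiles such as drug metabolites, plant toxins and products of lipid peroxidation, and the conjugates are then pumped out of the cell and trimmed to mercapturic acids. The cytosolic enzymes fall into classes by sequence, of which alpha, mu and pi are encoded in clusters of neighbouring genes, while the microsomal enzymes belong to a separate family of membrane proteins. In the gut epithelium they form part of the first barrier to ingested compounds, and many of their genes are known targets of the oxidant-sensing factor NRF2, which binds the antioxidant response element.

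Of the alpha class genes, Gsta1, Gm3776 and Gm10639 are near copies, so their start regions are shown first to make plain how little separates them. On GRCm38.p6, the RefSeq build, 5 alpha genes lie within 155 kb of chromosome 9, from base 78191966 to base 78347192, and Gsta3 lies apart on chromosome 1, from base 21240565 to base 21265575. The windows below run from 250 bases before to 50 bases after the RefSeq start of Gsta1 at chr9:78230419-78230718, Gm3776 at chr9:78256879-78257178 and Gm10639 at chr9:78289678-78289977, all on the plus strand. Capitals mark bases that differ from Gsta1 or face a gap, and in Gsta1 bases that differ from either of the others or are missing there.
Gsta1: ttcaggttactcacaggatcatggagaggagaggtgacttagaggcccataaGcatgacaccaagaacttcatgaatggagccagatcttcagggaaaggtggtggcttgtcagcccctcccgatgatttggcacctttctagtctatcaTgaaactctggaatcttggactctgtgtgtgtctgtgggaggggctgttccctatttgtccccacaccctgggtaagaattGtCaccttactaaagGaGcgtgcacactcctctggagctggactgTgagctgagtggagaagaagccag
Gm3776: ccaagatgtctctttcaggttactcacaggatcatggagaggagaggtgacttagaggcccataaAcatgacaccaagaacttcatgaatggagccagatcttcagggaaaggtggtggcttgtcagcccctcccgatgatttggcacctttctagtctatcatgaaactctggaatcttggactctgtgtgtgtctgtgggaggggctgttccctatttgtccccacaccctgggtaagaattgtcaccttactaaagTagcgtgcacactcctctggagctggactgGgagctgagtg
Gm10639: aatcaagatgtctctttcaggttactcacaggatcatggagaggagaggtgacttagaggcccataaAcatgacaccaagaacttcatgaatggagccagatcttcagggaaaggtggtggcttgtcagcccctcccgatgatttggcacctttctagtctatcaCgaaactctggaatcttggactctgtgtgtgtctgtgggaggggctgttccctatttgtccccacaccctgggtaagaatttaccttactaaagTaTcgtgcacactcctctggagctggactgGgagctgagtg

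Aligned, the Gsta1 and Gm3776 windows were identical at 284 of 287 positions, or 99.0%, with 3 mismatches and no gap. Gsta1 and Gm10639 were 97.6% identical, with 5 mismatches and 2 gap positions, and Gsta1 and Gsta2 were 77.8% identical. The transcripts are close as well: 71.3% of all 100-base windows of the Gsta1 transcript occur exactly in Gm3776, and 81.8% of Gsta1 and 85.5% of Gm3776 windows occur in some other gene. Of 50-base windows, 89.7% of Gsta1 and 92.5% of Gm3776 do. Reads from such stretches cannot be assigned to 1 gene, so the split between Gsta1 and Gm3776 is uncertain. No 50-base window of Gsta3, Gsta4, Gsto1 or Mgst1 occurs in another gene's transcript.

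Windows of 3 genes with a match to the antioxidant response element core are shown next, because this element is the known entry point of NRF2 at transferase genes. The core was searched on both strands as TGACNNNGC and as TGAGNNNGC. Over 32851 RefSeq start windows of the same length, 12.4% held the first form, 17.6% the other, and 27.8% either. Shown are Gsta3 at chr1:21240335-21240634 on the plus strand, and Gstp1 at chr19:4037863-4038162 and its neighbour Gstp2 at chr19:4042172-4042471, both on the minus strand, with the matches in capitals.
Gsta3: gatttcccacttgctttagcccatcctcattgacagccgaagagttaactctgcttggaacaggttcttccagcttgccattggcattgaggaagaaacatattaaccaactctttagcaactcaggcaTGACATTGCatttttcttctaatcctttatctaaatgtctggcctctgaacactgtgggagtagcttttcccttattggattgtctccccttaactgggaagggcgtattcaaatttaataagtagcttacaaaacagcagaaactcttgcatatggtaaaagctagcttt
Gstp1: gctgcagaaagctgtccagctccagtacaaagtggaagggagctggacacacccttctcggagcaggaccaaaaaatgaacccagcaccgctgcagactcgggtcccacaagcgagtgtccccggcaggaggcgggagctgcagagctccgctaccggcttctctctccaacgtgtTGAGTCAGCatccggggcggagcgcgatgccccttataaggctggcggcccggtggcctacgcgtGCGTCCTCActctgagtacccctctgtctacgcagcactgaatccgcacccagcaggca
Gstp2: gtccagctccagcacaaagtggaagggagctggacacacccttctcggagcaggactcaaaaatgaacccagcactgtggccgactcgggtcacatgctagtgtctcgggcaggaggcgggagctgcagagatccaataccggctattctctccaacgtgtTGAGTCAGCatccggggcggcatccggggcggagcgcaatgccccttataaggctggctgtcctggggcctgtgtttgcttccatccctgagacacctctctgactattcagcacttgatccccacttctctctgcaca

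Of the 8 members with a start window, 3 held a match in 1 or more of their windows, as did 8 of 20 other family genes. Gsta3 held TGACATTGC 121 bases before its start. Gstp1 held TGAGTCAGC 74 bases before its start, in letters that also contain the AP-1 core TGAGTCA, and GCGTCCTCA, a match on the opposite strand, 9 bases before it. The first of these letters recurs in Gstp2 89 bases before its start, and the Gstp1 and Gstp2 windows were 80.4% identical where aligned. Mgst1 held GCACGGTCA, a match on the opposite strand, 56 bases before its start. These letters were not in the windows of Gsta1 or Gm3776, and no window was at hand for Gsta4. The windows begin 250 bases before the start, so an element farther upstream would be missed. A match of letters is a description and not a site in use.

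All 4 alpha class members were at least 2-fold higher in all 5 knockout libraries than in WT crypts, and no other member was. Of all genes tested, 0.571% were higher in all 5, and since these members were chosen on the same values nothing is read from that share. With 5 FPKM added in place of 1, the count was 3 of the 4, without Gsta3. Gsta1 (gene 14857, chromosome 9, 78230669 to 78242683), which conjugates electrophiles, reduces lipid peroxides and binds bile pigments and steroids, was at 126, 111, 181, 184 and 404 FPKM in VEMD2, VEMD3, VEMD4, VEMD6 and VEMD8 crypts, against 36.9 FPKM in WT crypts. The lowest knockout library was thus well above WT, and VEMD8 stood above the other 4. The folds for Gsta1 were 3.36, 2.96, 4.80, 4.88 and 10.7, or log2 ratios of 1.75, 1.56, 2.26, 2.29 and 3.42.

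Gm3776 (gene 100042295, chromosome 9, 78257129 to 78269166), a predicted alpha class gene and the closest copy of Gsta1, was at 50.5, 58.2, 80.6, 72.1 and 173 FPKM in VEMD2 to VEMD8 crypts, against 13.2 FPKM in WT crypts. It again had its highest value in VEMD8, with folds of 3.64, 4.18, 5.76, 5.16 and 12.3 over WT. As plain FPKM, the Gsta1 level was 2.5, 1.91, 2.24, 2.55 and 2.34 times that of Gm3776 in VEMD2 to VEMD8 crypts and 2.80 times in WT crypts. Because the split of reads is uncertain, the sum over Gsta1, Gm3776, Gsta2 and Gm10639 was taken as well, and it was 177, 172, 266, 258 and 580 FPKM in VEMD2 to VEMD8 crypts and 50.7 FPKM in WT crypts. The sum was 3.45, 3.35, 5.17, 5.0 and 11.2 times WT. Gsta1 made up 64.6% to 71.5% of it in knockout crypts and 72.9% in WT crypts.

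Gsta4 (gene 14860, chromosome 9, 78191966 to 78209349) clears hydroxynonenal, a toxic product of lipid peroxidation. Its levels were 41.1, 65.4, 108, 49.2 and 84.2 FPKM in VEMD2 to VEMD8 crypts, against 15.7 FPKM in WT crypts. Its knockout values did not overlap WT, but the highest was VEMD4 and not VEMD8, with log2 ratios of 1.33, 1.99, 2.70, 1.59 and 2.35. Gsta4 shares no 50-base window with Gsta1, so exact matches of that length or longer are not shared between them.

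Gsta3 (gene 14859), known in mice for conjugating aflatoxin epoxide, was near the floor in WT crypts and had the largest ratio of any member in VEMD2, VEMD3 and VEMD4. It was at 13.4, 27.8, 21.7, 4.09 and 11.8 FPKM in VEMD2 to VEMD8 crypts, against 0.63 FPKM in WT crypts. VEMD3 was highest and VEMD6 lowest among the knockouts, and the log2 ratios were 3.14, 4.14, 3.80, 1.64 and 2.98. With 5 FPKM added in place of 1, its VEMD6 ratio was 0.69, under 2-fold. In level, Gsta3 stood at the 1.85th percentile of all tested genes in WT crypts and at the 49.0th in VEMD8 crypts.

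**Figure D1:**
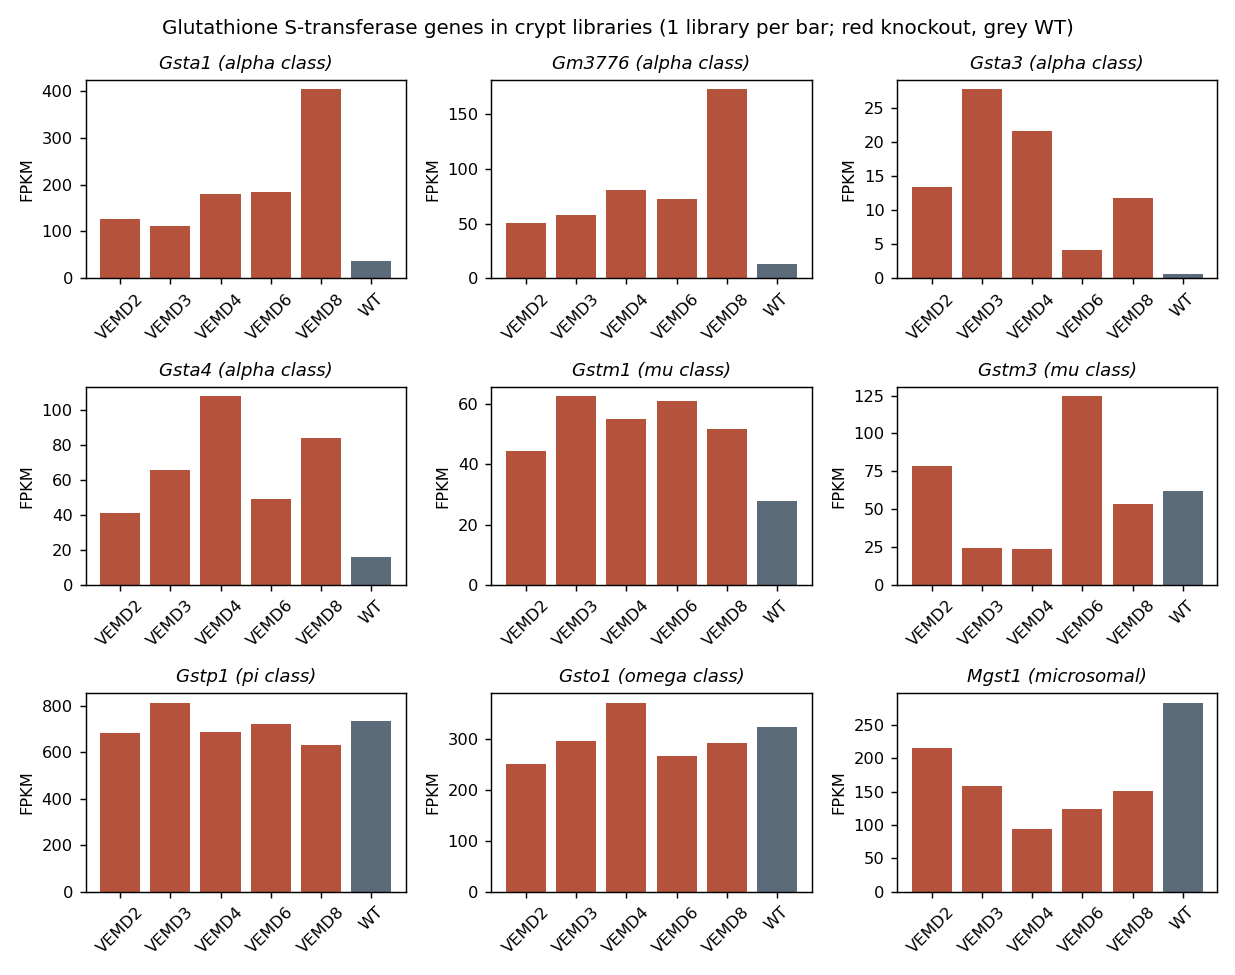
FPKM (vertical axis, from 0, a scale of its own per gene) of the 9 transferase genes in each crypt library, with 1 bar per library, red for knockout and grey for WT, and no error bars since each group holds 1 library. The 4 alpha class genes lie above WT in every knockout library, from 2.52-fold for Gsta4 in VEMD2 to 17.6-fold for Gsta3 in VEMD3, while Gstp1 stays between 632 and 812 FPKM in knockout crypts and at 736 FPKM in WT crypts.

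The mu class members did not follow the alpha class. Gstm1 (gene 14862, chromosome 3, 108012250 to 108017973), a conjugator of epoxides and quinones, was at 44.4, 62.6, 55.0, 61.0 and 51.6 FPKM in VEMD2 to VEMD8 crypts, against 28.0 FPKM in WT crypts. All 5 knockout values lay above WT, but Gstm1 was called in VEMD3 and VEMD6 alone, with log2 ratios of 0.65, 1.14, 0.95, 1.10 and 0.86. With the libraries rescaled to the median gene, its VEMD3 ratio was 1.0 and just under 2-fold.

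Gstm3 (gene 14864, chromosome 3, 107963696 to 107969174), another mu class enzyme, went in opposite directions. It was at 78.8, 24.5, 23.6, 125 and 53.7 FPKM in VEMD2 to VEMD8 crypts, against 61.8 FPKM in WT crypts. VEMD3 and VEMD4 lay below WT at log2 ratios of -1.30 and -1.35, VEMD6 lay above at 1.0, and VEMD2 and VEMD8 were within 2-fold at 0.35 and -0.20. The enterocyte markers also had their lowest sum in VEMD3 (18 of 22 at least 2-fold lower, none higher) and their highest in VEMD6 (8 higher, 3 lower), though their VEMD4 sum, with 1 higher and 8 lower, was above that of VEMD2. All 22 were above 0 in every library, and their part in the Gstm3 values was not tested. Of 100-base windows, 13.8% of Gstm3 and 7.73% of Gstm1 occur in another gene. Of 50-base windows, 28.8% of Gstm3 and 23.1% of Gstm1 do. At either length these shares are smaller than those of Gsta1 and Gm3776. The read length is not known, so the share of reads that is uncertain cannot be given.

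Gstp1 (gene 14870, chromosome 19, 4035411 to 4037912), the pi class enzyme that also binds stress kinases, was the member with the highest level in all 6 libraries. It was at 681, 812, 685, 722 and 632 FPKM in VEMD2 to VEMD8 crypts, against 736 FPKM in WT crypts. The WT value lay inside the knockout range and the log2 ratios ran from -0.22 to 0.14. Its neighbour Gstp2 was at 148, 228, 220, 225 and 196 FPKM in VEMD2 to VEMD8 crypts and 119 FPKM in WT crypts, with log2 ratios of 0.31 to 0.93 and no call. Reads are uncertain here as well, since 52.8% of Gstp1 and 63.5% of Gstp2 100-base windows occur in another transcript. Of 50-base windows, 62.3% of Gstp1 and 72.6% of Gstp2 do.

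Gsto1 (gene 14873, chromosome 19, 47854973 to 47864790) uses a cysteine in its active site and reduces dehydroascorbate and mixed disulfides. It was at 250, 294, 370, 266 and 290 FPKM in VEMD2 to VEMD8 crypts, against 323 FPKM in WT crypts. WT again lay inside the knockout range, VEMD4 was the 1 library above it, and the log2 ratios ran from -0.37 to 0.19.

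Mgst1 (gene 56615, chromosome 6, 138140527 to 138156755), the microsomal enzyme of the endoplasmic reticulum and outer mitochondrial membrane with transferase and peroxidase activity, lay below WT in every knockout library. It was at 215, 158, 94.6, 125 and 151 FPKM in VEMD2 to VEMD8 crypts, against 284 FPKM in WT crypts. VEMD4 was the lowest, and the log2 ratios were -0.40, -0.84, -1.57, -1.18 and -0.91, so that VEMD4 and VEMD6 were called. With the libraries rescaled to the median gene, the VEMD6 ratio was -0.91 and no longer 2-fold. The 9 stem cell markers summed to 647, 461, 266, 221 and 392 FPKM in VEMD2 to VEMD8 crypts and 710 FPKM in WT crypts, of which Olfm4 alone made up 479.9, 276.2, 128.6, 154.3 and 300.4 FPKM in VEMD2 to VEMD8 crypts and 574.4 FPKM in WT crypts. The other 8 summed to 167, 184, 138, 66.5 and 91.6 FPKM in VEMD2 to VEMD8 crypts and 136 FPKM in WT crypts, and the median log2 ratios of the 9 were 0.41, 0.54, 0.10, -1.06 and -0.42, so that most of the list did not share the pattern of Olfm4 and Mgst1 in VEMD2 to VEMD4. The part of these markers in the Mgst1 values was not tested.

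Ranked by level, Gstp1 came first in all 6 libraries and Gsto1 second in all but VEMD8, where Gsta1 took that place. Mgst1 held rank 3 in WT crypts and rank 5 in VEMD8 crypts. Gsta3 was last in VEMD2, VEMD4, VEMD6 and VEMD8 crypts and in WT crypts, and Gstm3 was last in VEMD3. With 1 library per group, no spread is at hand to say which neighbours in this order differ.

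Counted by library, 4, 5, 4, 6 and 4 of the 9 members were higher by 2-fold or more in VEMD2, VEMD3, VEMD4, VEMD6 and VEMD8 crypts. Gsta1 and Gm3776 enter these counts and the median below as separate members, although the split of their reads is uncertain. Over all 10862 genes tested, 2.44%, 6.0%, 7.11%, 5.04% and 4.36% were higher in those libraries. Members at least 2-fold lower numbered 0, 1, 2, 1 and 0, where 2.39%, 4.63%, 5.04%, 8.15% and 5.21% of all genes were lower. In all 5 libraries at once, 4 members were higher and 0 lower, where 0.571% of all genes were higher and 0.626% lower, and again nothing is read from these shares. The median log2 ratio of the members was 0.65, 1.14, 0.95, 1.10 and 0.86 in VEMD2 to VEMD8 crypts, and that of all genes tested was 0.09, 0.12, 0.03, -0.23 and -0.06.

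Among the knockout libraries, Gsta3, Gstm3 and the Gsta1 pair differed the most. Between VEMD3 and VEMD2, 1 member, Gstm3, was at least 2-fold apart, with a log2 ratio of -1.65 against a background of 2.55% of all genes. Gsta3, at 1.0, was just under the threshold there and passed it at 1.05 with 0.1 FPKM added in place of 1. Between VEMD4 and VEMD3 no member was called, where 3.13% of genes were. VEMD6 differed from VEMD4 in 3 members, with Gstm3 higher at 2.35 and Gsta3 and Gsta4 lower at -2.15 and -1.12, where 14.5% of all genes were called and their median ratio was -0.28. Rescaled to the median gene, the Gsta4 ratio was -0.82.

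VEMD8 was above VEMD6 for Gsta1 (log2 ratio 1.13), Gm3776 (1.25) and Gsta3 (1.33) and below it for Gstm3 (-1.20), against a background of 3.66% of genes and a median ratio of 0.18 over all genes. Rescaled, the Gsta1 ratio was 0.93, and with 5 FPKM added the Gsta3 ratio was 0.89. VEMD8 was above VEMD2 for Gsta1 at 1.67, Gm3776 at 1.76 and Gsta4 at 1.02, where 8.06% of genes were called and the median ratio was -0.16. The Gsta4 ratio was 0.95 with 5 FPKM added. In the same pair of libraries the 14 Paneth cell markers without Reg3g summed to 3707.2 FPKM in VEMD8 crypts and 43536.2 FPKM in VEMD2 crypts, while Reg3g was at 6988.4 and 793.7 FPKM, and their part in these values was not tested.

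Across the family, the alpha class sum differed most from WT, while the total lay close to it. The 6 alpha genes with values summed to 232, 265, 395, 311 and 675 FPKM in VEMD2 to VEMD8 crypts, against 67.0 FPKM in WT crypts. They made up 11.4%, 12.1%, 18.2%, 12.8% and 26.6% of the summed transferase FPKM in VEMD2 to VEMD8 crypts and 3.10% in WT crypts. The sum of the 3 microsomal Mgst genes went the other way, with 482, 365, 310, 531 and 466 FPKM in VEMD2 to VEMD8 crypts and 668 FPKM in WT crypts. That was 23.7%, 16.7%, 14.3%, 21.9% and 18.4% of the summed transferase FPKM in knockouts and 30.9% in WT. The 3 genes did not move together. In VEMD6, Mgst3 was at a log2 ratio of 0.15 and Mgst2 at -0.07, against -1.18 for Mgst1.

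The 3 pi genes summed to between 841 and 1055 FPKM in knockout crypts and 869 FPKM in WT crypts, and the 7 mu genes to between 133 and 275 FPKM in knockout crypts and 162 FPKM in WT crypts. All 25 genes of these classes with omega and theta together summed to 2037, 2183, 2174, 2420 and 2535 FPKM in VEMD2 to VEMD8 crypts and 2162 FPKM in WT crypts. The summed level therefore lay within a log2 ratio of -0.09 to 0.23 of WT while its make-up shifted towards the alpha class.

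**Figure D2:**
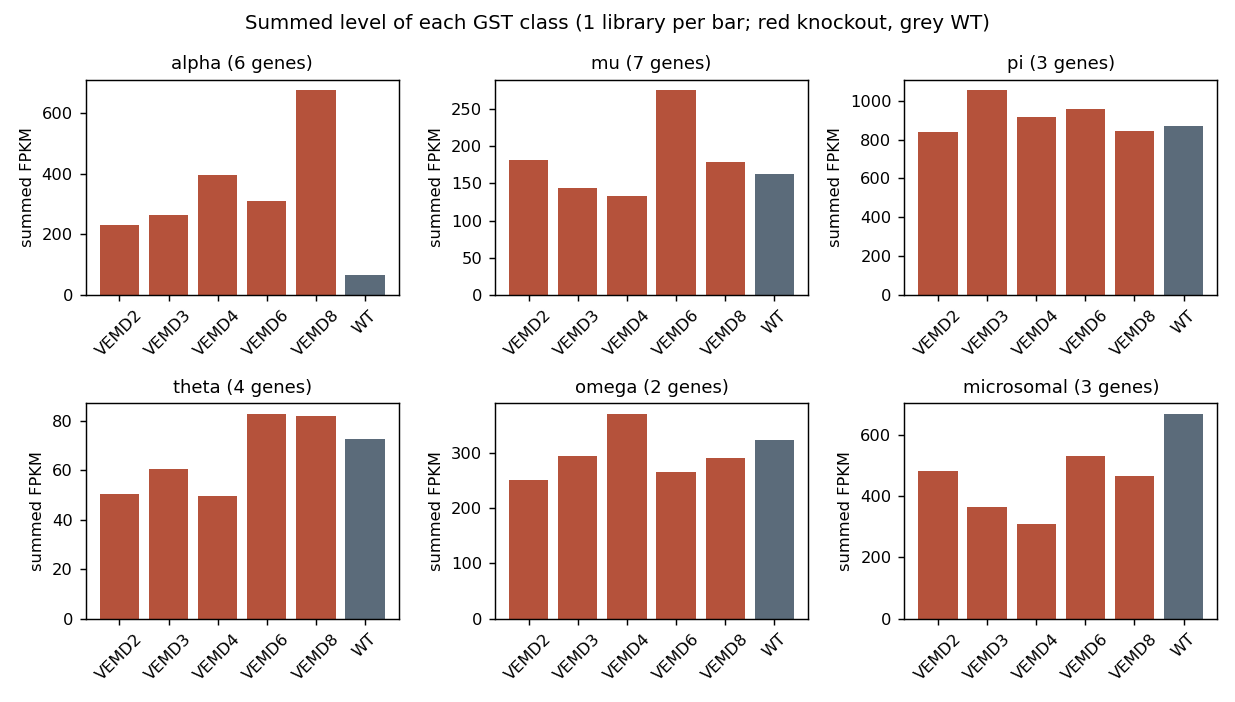
Summed FPKM (vertical axis, from 0, a scale of its own per class) of the genes of each transferase class, with 1 bar per crypt library, red for knockout and grey for WT, and no error bars. The alpha class lies between 232 and 675 FPKM in knockout crypts and at 67.0 FPKM in WT crypts, and the microsomal class between 310 and 531 FPKM in knockout crypts and at 668 FPKM in WT crypts.

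Of the 22 other family genes with values, 15 passed the filter. Of these, 0, 1, 1, 3 and 0 were higher and 1, 3, 3, 2 and 2 lower in VEMD2, VEMD3, VEMD4, VEMD6 and VEMD8 crypts. Over all genes tested, 2.44%, 6.0%, 7.11%, 5.04% and 4.36% were higher and 2.39%, 4.63%, 5.04%, 8.15% and 5.21% lower. With 15 genes, nothing is read from these counts. The same shares are the background for the list counts below. The median log2 ratios of the 15 genes were -0.43, -0.43, -0.55, 0.13 and 0.13. Gstk1, the kappa class enzyme of mitochondria and peroxisomes, was the 1 family gene lower in all 5 libraries, at 8.16, 5.26, 7.61, 8.28 and 7.28 FPKM in VEMD2 to VEMD8 crypts, against 19.7 FPKM in WT crypts. Gstm2, of the same cluster as Gstm1, was at 6.77, 4.48, 3.69, 3.64 and 4.83 FPKM in VEMD2 to VEMD8 crypts and 12.3 FPKM in WT crypts, and was called lower in 4 libraries.

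More mu genes were called higher in VEMD6 than in any other library. There Gstm4 was at 28.2 FPKM, Gstm6 at 26.3 FPKM and Gstt1 at 30.6 FPKM, against 9.43, 10.6 and 14.4 FPKM in WT crypts. These 3 were called in no other library. Gstt1, of the theta class, was close to this in VEMD8, at 27.7 FPKM and a log2 ratio of 0.90. The 4 theta genes summed to 82.9 FPKM in VEMD6 and 82.0 FPKM in VEMD8 crypts, against 72.5 FPKM in WT crypts. Of the 7 mu genes, which lie within 149 kb of chromosome 3, 4 were higher in VEMD6 (Gstm1, Gstm3, Gstm4 and Gstm6) and Gstm2 was lower. Over all genes tested, 5.04% were higher and 8.15% lower in VEMD6. The Gstm3 ratio was 1.0 there, and 0.96 with 5 FPKM added in place of 1. Gstm5 and Gstm7 were called in no library.

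Gsta2 was at 0, 1.88, 2.10, 1.10 and 1.15 FPKM in VEMD2 to VEMD8 crypts and 0.34 FPKM in WT crypts. It passed the filter through knockout libraries alone. Of its 100-base windows 35.0%, and of its 50-base windows 64.2%, occur in another gene. Gm10639, whose start window is shown above, stayed between 0.15 and 2.33 FPKM in knockout crypts and at 0.24 FPKM in WT crypts, far under Gm3776 although their start windows were 98.3% identical. Gstz1, an isomerase of tyrosine breakdown, was lower in VEMD4 at a log2 ratio of -1.26, and Mgst3 was lower in VEMD3 at -1.14. Gstp3, Gstt2, Gstt3 and Mgst2 were called in no library. Gstt4, Gsto2, Hpgds, Ptges, Ltc4s and Alox5ap had means under 1 FPKM. The symbols Gsta5 and Gsta13 matched no gene name used here. These genes were not looked for under other names, so they may be present under another symbol.

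**Figure D3:**
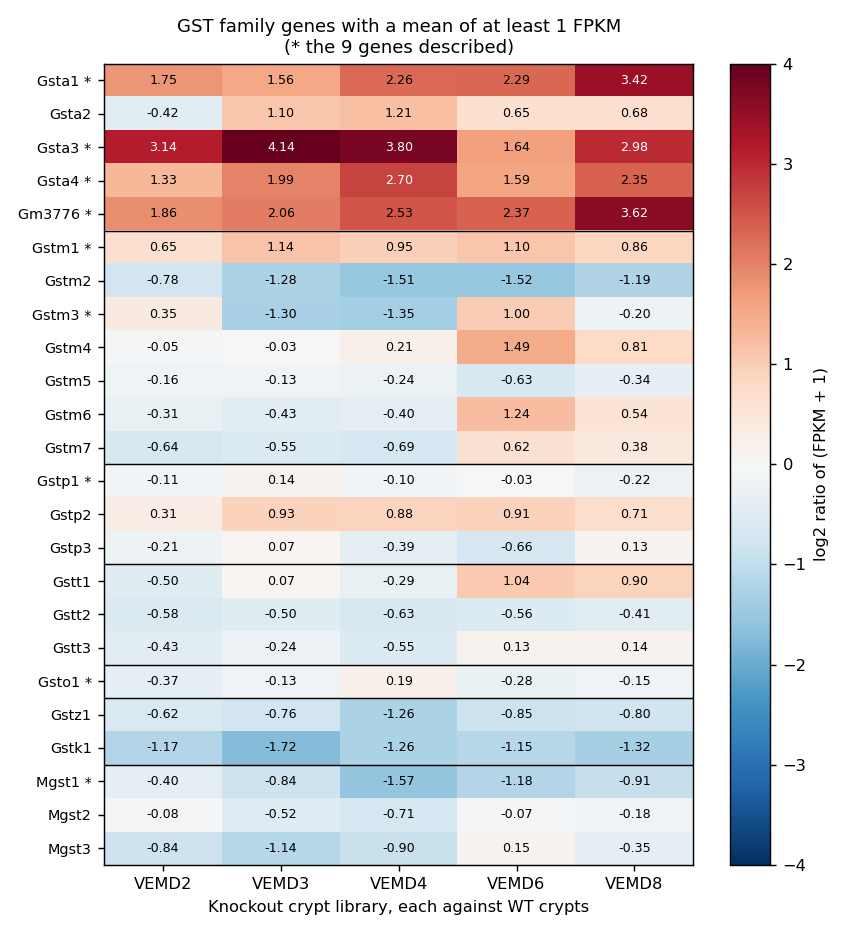
Log2 ratios of (FPKM + 1) of each knockout crypt library (columns) to WT crypts for the 24 transferase family genes that passed the filter (rows, grouped by class, stars on the 9 genes described), red for higher and blue for lower than WT, with the ratio printed in each cell. The deepest red cells are Gsta3 in VEMD3 at 4.14, Gsta3 in VEMD4 at 3.80 and Gm3776 in VEMD8 at 3.62, and Gstk1 is at -1.15 or lower in all 5 libraries.

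Genes that make and supply glutathione gave a mixed picture. Of 8 tested, 1, 3, 3, 0 and 2 were higher and 1 was lower in each of VEMD2, VEMD3, VEMD4, VEMD6 and VEMD8 crypts, with medians of 0.50, 0.61, 0.67, 0.37 and 0.23. Gclc, the catalytic subunit of the rate-limiting ligase, was at 25.7, 36.7, 46.8, 19.4 and 24.5 FPKM in VEMD2 to VEMD8 crypts, against 13.0 FPKM in WT crypts, and was called in VEMD3 and VEMD4. The neutral amino acid carrier Slc1a4 was higher in 4 libraries, at log2 ratios of 1.71, 2.48, 1.73 and 1.49 in VEMD2, VEMD3, VEMD4 and VEMD8. The cystine carrier Slc7a11 was called in VEMD4 and VEMD8, where it was at 1.17 and 3.31 FPKM, against 0.03 FPKM in WT crypts, and it too passed the filter through knockout libraries alone. Cth, which makes cysteine by transsulfuration, was the 1 gene lower in all 5, at 25.1, 16.9, 10.1, 17.8 and 21.3 FPKM in VEMD2 to VEMD8 crypts, against 52.1 FPKM in WT crypts.

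Peroxidases and reductases of glutathione were called in part of the libraries. Of 12 genes, 0, 2, 2, 1 and 0 were higher and none lower in VEMD2 to VEMD8 crypts, with medians of -0.22, 0.21, 0.23, 0.08 and -0.19. Gpx2, the gut form, was at 798, 1202, 1613, 391 and 712 FPKM in VEMD2 to VEMD8 crypts, against 550 FPKM in WT crypts, and was called in VEMD3 and VEMD4. Gpx3, the secreted form, was at 10.0, 30.5 and 11.4 FPKM in VEMD3, VEMD4 and VEMD6, where it was called, against 4.19 FPKM in WT crypts. In VEMD2 and VEMD8 it lay below WT without a call, at 1.73 and 2.34 FPKM.

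Among 22 genes of the NRF2 pathway outside the glutathione genes, 4, 6, 7, 4 and 4 were higher and 0, 0, 0, 0 and 1 lower in VEMD2 to VEMD8 crypts, with medians of 0.12, 0.35, 0.66, 0.31 and 0.17. Akr1b8, an aldo-keto reductase, and Hmox1, the inducible haem oxygenase, were higher in all 5, and both are among the 4 genes of the list with the largest ratios. Akr1b8 was at 32.5, 80.3, 120, 33.1 and 68.4 FPKM in VEMD2 to VEMD8 crypts, against 8.03 FPKM in WT crypts. Hmox1 was at 2.37, 6.99, 8.25, 4.67 and 3.96 FPKM in VEMD2 to VEMD8 crypts, against 0.46 FPKM in WT crypts. Hmox1 and Cbr3, both under 1 FPKM in WT crypts, passed the filter through the knockout libraries alone, and without them 3, 4, 5, 3 and 3 of the list were higher. Nqo1, of the same list, was at 29.5, 29.5, 24.1, 19.7 and 29.9 FPKM in VEMD2 to VEMD8 crypts, against 29.8 FPKM in WT crypts. Like Nqo1, Osgin1, Taldo1 and Tkt were called in no library. The activity of NRF2 was not tested.

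Ephx1, the microsomal epoxide hydrolase, split the knockouts in a way no alpha class member did. It was at 49.6, 89.0, 56.4, 2.42 and 1.35 FPKM in VEMD2 to VEMD8 crypts, against 4.70 FPKM in WT crypts, so that it was called higher in VEMD2, VEMD3 and VEMD4 and lower in VEMD8. Abcc1, an exporter of glutathione conjugates, was higher in the same 3 libraries, at log2 ratios of 1.36, 1.81 and 1.78.

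Of 7 other efflux transporters, 3, 3, 3, 4 and 3 were higher and 0, 1, 1, 0 and 0 lower in VEMD2 to VEMD8 crypts, with medians of 0.88, 0.46, 0.87, 1.12 and 0.99. Abcc5 was higher in all 5, at 3.30, 7.16, 6.57, 3.64 and 4.02 FPKM in VEMD2 to VEMD8 crypts, against 1.07 FPKM in WT crypts. Abcc2, the apical exporter of conjugates, was called in VEMD6 and VEMD8, where it was at 55.2 and 31.2 FPKM, against 12.1 FPKM in WT crypts. Abcc4 was called in all but VEMD6, where its log2 ratio was 0.84, and Abcb1b in VEMD2, VEMD3 and VEMD4. Abcc4 and Abcb1b, at 0.46 and 0.01 FPKM in WT crypts, passed the filter through the knockout libraries alone, and without them 1, 1, 1, 4 and 2 of the list were higher.

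Genes of glutathione breakdown and the mercapturic acid route numbered 12, of which 0, 0, 1, 4 and 2 were higher and 0, 3, 1, 0 and 0 lower in VEMD2 to VEMD8 crypts, with medians of -0.24, -0.33, -0.12, 0.21 and -0.08. Chac1, which cleaves glutathione inside the cell, was at 4.20, 6.80 and 33.4 FPKM in VEMD4, VEMD6 and VEMD8, against 1.53 FPKM in WT crypts. Anpep, a brush border peptidase that is also on the enterocyte list, was at 399 and 3497 FPKM in VEMD3 and VEMD6, against 1015 FPKM in WT crypts. Nat8, which acetylates cysteine conjugates, was higher in VEMD6 and VEMD8 at log2 ratios of 1.92 and 1.68.

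**Figure D4:**
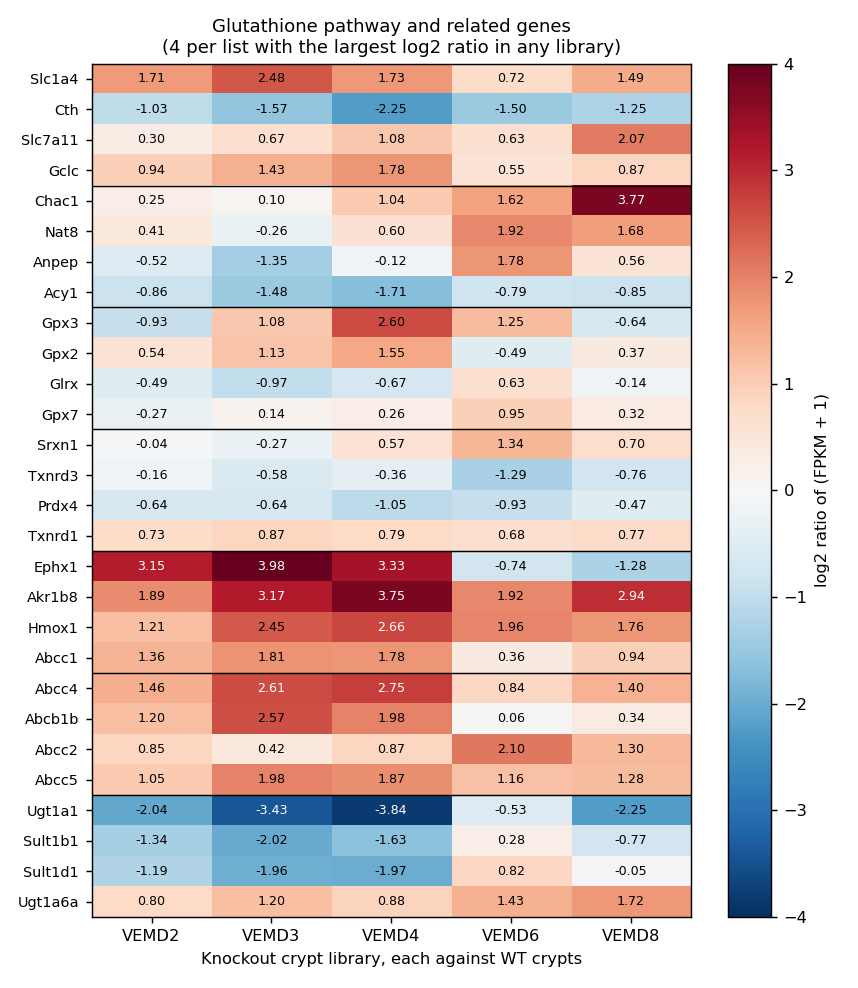
Log2 ratios of (FPKM + 1) of each knockout crypt library (columns) to WT crypts for the 4 genes per list with the largest ratio in any library (rows, from glutathione synthesis at the top to other conjugating enzymes at the bottom), red for higher and blue for lower than WT. Akr1b8, Hmox1 and Abcc5 are at least 2-fold higher in all 5 columns and Cth is at least 2-fold lower in all 5. Other rows, such as Slc1a4 and Ugt1a1, also keep the same color throughout but are not called in every column. Ephx1 is at 3.98 in VEMD3 and -1.28 in VEMD8.

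Likeness of pattern was measured as the root mean square difference of log2(FPKM + 1) over the 6 libraries after centring each gene, where 0 is the same profile, among 8162 genes that averaged 5 FPKM or more. Among the members, Gsta1 and Gm3776 were the closest at 0.160, with the caveat of shared reads, and Gstp1 and Gsto1 followed at 0.212. Gsta3 and Gstm3 were the farthest apart at 2.05. Outside the family, the nearest genes to Gsta1 were Fkbp11, a prolyl isomerase of the endoplasmic reticulum, at 0.401 and Acadl, an enzyme of fatty acid oxidation, at 0.420.

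Gm3776 was nearest to the heat shock gene Hspa1a at 0.422 and to Acadl at 0.447. For Gsta4 the nearest were Lgmn, a lysosomal protease, at 0.162 and Anxa5, an annexin, at 0.235. Lgmn was at 30.3, 62.5, 94.8, 52.6 and 70.3 FPKM in VEMD2 to VEMD8 crypts and 14.5 FPKM in WT crypts, a profile with its peak in VEMD4 like that of Gsta4. For Gsta3 they were the surface antigen Ly6a at 0.374 and the zinc finger gene Zfp982 at 0.390. Ly6a was at 368, 790, 1075, 162 and 275 FPKM in VEMD2 to VEMD8 crypts and 37.3 FPKM in WT crypts, so that both Ly6a and Gsta3 were lowest in VEMD6 among the knockouts.

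Gstm3 was nearest to a pair of solute carriers, Slc2a7 for hexoses at 0.202 and Slc4a4 for bicarbonate at 0.225. Slc2a7 was at 7.38, 2.02, 2.75, 14.96 and 7.39 FPKM in VEMD2 to VEMD8 crypts and 8.13 FPKM in WT crypts. Mgst1 was nearest to Ttyh3 at 0.137 and to Smoc2, a stem cell marker of the crypt base, at 0.139. The stem cell markers as a list had median log2 ratios of 0.41, 0.54 and 0.10 in VEMD2, VEMD3 and VEMD4, where Mgst1 lay below WT. Gstm1 was nearest to Ccser2 at 0.109 and Ubr4 at 0.113. The flat profiles of Gstp1 and Gsto1 had close neighbours, Thoc7 at 0.0284 and Cox19 at 0.0344 for Gstp1, and Txnip at 0.0684 and Bcl3 at 0.0765 for Gsto1.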

How the data were processed

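The authors deposited crypt RNA values as FPKM with 2 decimals, a unit named per the file headers. The tools HISAT2, featureCounts and edgeR and the builds GRCm38 and mm10 are named per the submitters' processing notes; versions, read length and strand of counting are not given in the sources used here. Of 20718 lines, 3760 held no value, and RefSeq GRCm38.p6 named 16916 of the other 16958 genes.

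The members, lists and rules were chosen with earlier results of these data known. Ratios were log2 of (FPKM + 1) for genes averaging 1 FPKM or more, called at 2-fold or more, without a test. Every family gene, Setdb1, up to 4 genes per list by largest ratio and the 2 nearest genes per member could be named, and not all are reported. Genes named as limits, such as Cbr3, Nqo1, Osgin1, Taldo1 and Tkt, lie outside that rule. Promoters came from RefSeq and transcripts from GENCODE. The 2-fold rule was run on WT values multiplied by known factors, with no noise added. The outcome was fixed by that, so it says nothing about false calls between single libraries. Whole reads could not be recovered, since the fullest bin of low-value ratios had 6.63% to 9.27% of genes, against 4.83% to 5.45% in the bin after it. In a repeat table, 2 columns of per-sample values were not used. Python 3.11.15, pandas 2.3.3, numpy 2.4.6, Biopython 1.88 and matplotlib 3.10.9 were used.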

Additional observations from a re-analysis of the deposited data

Results flagged for a closer look

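Gstm3 was the 1 member that differed from WT by at least 2-fold in opposite directions. Its log2 ratio to WT crypts was -1.30 in VEMD3 and -1.35 in VEMD4 but 1.0 in VEMD6. Each value comes from 1 library and all 3 share the WT library, so the difference between these libraries was not tested. With 5 FPKM added in place of 1, the VEMD6 ratio was 0.96.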

How the results depend on the processing

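No paired analysis was possible because every group consists of 1 library. The alternatives were 0.1 or 5 FPKM added in place of 1, no filter on low values, libraries rescaled to the median gene, and each knockout library left out. Without 1 knockout library, between 4 and 4 members were higher and between 0 and 0 lower in all those that remained, a setting that cannot remove a gene from the count and so says nothing about its stability, while the WT library behind every ratio cannot be left out. With 5 FPKM added, Gsta3 was under 2-fold in VEMD6 at a log2 ratio of 0.69, which leaves 3 alpha class members called in all 5. Rescaled, 0 members were lower in VEMD6 in place of 1, since Mgst1 was at -0.91. With 0.1 FPKM added, 2 members differed between VEMD3 and VEMD2 in place of 1, with Gsta3 added at 1.05. No ratio, list median or class sum of 2-fold or more changed sign, while some near 0 did, such as Gstp1 in VEMD6, at -0.03 as deposited and 0.24 rescaled. Of 90 member ratios, 4 lost their call when rescaled and 4 with 5 FPKM added, and 1 gained it with 0.1 FPKM added. The mu class sum in VEMD6 and the microsomal sum in VEMD3 passed 2-fold when rescaled, at 1.03 and -1.01. Chosen after seeing the data, Paneth and stem cell marker sums without Reg3g or Olfm4 are given with the results. The causes were not tested. The unknown depth limits the low values of Gsta3, Gsta2 and Gm10639 most.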

Other observations

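Other conjugating enzymes did not follow the alpha class. Of 13 genes of glucuronidation, sulfation, acetylation, methylation and epoxide hydrolysis, 0, 1, 0, 1 and 1 were at least 2-fold higher and 4, 6, 6, 1 and 2 lower in VEMD2, VEMD3, VEMD4, VEMD6 and VEMD8 crypts than in WT crypts, with median log2 ratios of -0.51, -0.84, -0.75, 0.27 and -0.06. Ugt1a1, the bilirubin glucuronosyltransferase, was at 16.1, 5.50, 3.92, 47.8 and 13.8 FPKM in VEMD2 to VEMD8 crypts, against 69.3 FPKM in WT crypts. The sulfotransferases Sult1b1 and Sult1d1 were called lower in VEMD2, VEMD3 and VEMD4 but not in VEMD6 or VEMD8. Ugt1a6a was called higher in VEMD3, VEMD6 and VEMD8, at 4.40, 5.34 and 6.72 FPKM against 1.35 FPKM in WT crypts. Since UGT genes of this locus share their last exons, the split of reads between them is uncertain.

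Xenobiotic receptors and related factors numbered 10, of which none was higher and 0, 2, 2, 0 and 0 were lower in VEMD2 to VEMD8 crypts. Ppara, the fatty acid receptor, was called lower in VEMD3 and VEMD4 at log2 ratios of -1.28 and -1.53, the constitutive androstane receptor Nr1i3 in VEMD3 at -1.36, and Rxra in VEMD4 at -1.01. In the thioredoxin and peroxiredoxin system of 13 genes, Srxn1 was higher in VEMD6 at 1.34, Prdx4 lower in VEMD4 at -1.05 and Txnrd3 lower in VEMD6 at -1.29, and no gene was called in VEMD2, VEMD3 or VEMD8.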
